A study of Mus musculus with 4 samples.

Results

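The genes described here are 9 genes through which the lining of the small intestine addresses the lymphocytes that live in it: the butyrophilin-like genes Btnl1, Btnl2, Btnl4 and Btnl6, the cytokines Il15 and Il7, the chemokines Ccl25 and Cxcl16, and the receptor Tnfrsf14. They were chosen by symbol from the 32285 genes of the count matrix for their known roles. All 9 were found. They were followed across cell classes, along the axis from crypt to villus tip, along the length of the intestine and in the 4 libraries, which held very different numbers of T cells.

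Butyrophilin-like proteins are membrane proteins of the immunoglobulin superfamily. In the mouse small intestine Btnl1 and Btnl6 act as a pair on enterocytes and select and maintain the intraepithelial lymphocytes whose gamma-delta T cell receptor uses the V-gamma-7 chain, and Btnl4 can also pair with Btnl1. Il15, presented by its receptor chain Il15ra, sustains intraepithelial T cells through Il2rb and Il2rg, and Il7 sustains lymphocytes through Il7r. Ccl25 draws cells that carry Ccr9 into the small intestine, Cxcl16 is a membrane-bound chemokine for cells that carry Cxcr6, and Tnfrsf14 (also named HVEM) is a receptor for Tnfsf14, Btla and Cd160.

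The study set 2 groups of male C57BL/6J mice side by side, and all of them ate high-fat feed and received l-NAME, which blocks nitric oxide synthases. One group (CON) had no addition, and the diet of the other (IPA) held 562.5 mg per kg of indolepropionic acid, a tryptophan metabolite of gut bacteria. Mice entered at 8 weeks of age and were taken at 15 weeks, after 7 weeks on the diets. Each group had 2 samples, each a pool of 2 mice, of cells released with EDTA and DTT from jejunum and ileum without Peyer's patches and sorted as DAPI-negative. The 4 libraries of the matrix are told apart by a number on each barcode, and no label or header links these numbers to the samples. The diets are therefore not compared, and each library is given on its own as library 1 to 4, with no group mean and no p-value.

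The assay reads transcript 3′ ends and counts molecules by unique molecular identifiers (UMIs). Of 44277 barcodes, 25788 passed the filters, 6174 to 7122 a library, with a median of 22601 to 27622 UMIs. From 5 to 20 of these barcodes were shared by a pair of libraries. Cells were put in classes by fixed marker genes with limits set after seeing the data, so that a class is a range and its name ends in -like: 789 cells (3.06%) lay within 20% of the enterocyte limit. Enterocyte-like cells numbered 4794, 5111, 3504 and 5390 in libraries 1 to 4, and T-like cells 321, 4, 1238 and 5. Levels are given as UMIs per 1000000 UMIs of the class (CPM), from UMIs summed per library, and intervals are 95% Poisson intervals that cover counting error only. A gene is called higher or lower where the ratio of CPM plus 1 was at least 2-fold in the same direction in every library. Libraries counted had at least 20 cells in both arms, and genes had a mean over both arms of at least 5 CPM. A gene could thus pass through its higher arm alone, and this holds for the members and for all genes alike.

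The 4 butyrophilin-like genes lie within 162531 bases on chromosome 17 (mm10, GENCODE vM21). Btnl2 (chr17:34354822-34369495) and Btnl1 (chr17:34377132-34386028) are on the plus strand, and Btnl4 (chr17:34466562-34477318) and Btnl6 (chr17:34507804-34517352) on the minus strand. The pseudogene Btnl5-ps lies between Btnl4 and Btnl6, and the pseudogene Btnl7-ps lies beyond Btnl6, outside this span. Since the genes are copies of one another, 3′ reads could be split between them. In windows of 90 bases from the last 500 bases of each annotated transcript, Btnl1, Btnl2 and Btnl4 shared none with another gene, and Btnl6 shared 11 of 542 with Btnl7-ps. Of the windows from Btnl5-ps, however, 68 of 1105 were also found in Btnl4 transcripts. Neither pseudogene was found in the count matrix, and whether its reads were counted for Btnl4 or Btnl6 was not tested. Tnfrsf14 (chr4:154921933-154928563), Il7 (chr3:7569994-7613760) and Cxcl16 (chr11:70453983-70459984) are on the minus strand of other chromosomes. Ccl25 (chr8:4325210-4360020, plus strand) and Il15 (chr8:82331632-82403222, minus strand) share chromosome 8.

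The 250 bases before the RefSeq start site (GRCm38.p6) are printed for the 4 butyrophilin-like genes because the comparisons below set these copies of one another side by side, with Btnl6 apart in Fabp6-high cells and Btnl4 in goblet-like cells. Capitals mark CAAAGTCC, letters of the binding motif of the enterocyte factor Hnf4a, searched on both strands.
Btnl1, chr17:34376882-34377131, plus strand: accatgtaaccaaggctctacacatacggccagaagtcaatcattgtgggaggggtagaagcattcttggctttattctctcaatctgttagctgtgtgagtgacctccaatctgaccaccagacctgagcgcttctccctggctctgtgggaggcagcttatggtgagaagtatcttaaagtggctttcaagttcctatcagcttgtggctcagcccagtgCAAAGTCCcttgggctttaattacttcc
Btnl2, chr17:34354572-34354821, plus strand: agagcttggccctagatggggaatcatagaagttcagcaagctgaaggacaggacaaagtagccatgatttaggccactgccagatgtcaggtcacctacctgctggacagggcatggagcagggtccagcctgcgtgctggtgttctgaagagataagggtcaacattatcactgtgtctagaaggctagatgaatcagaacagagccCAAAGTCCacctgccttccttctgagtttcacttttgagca
Btnl4, chr17:34475938-34476187, minus strand: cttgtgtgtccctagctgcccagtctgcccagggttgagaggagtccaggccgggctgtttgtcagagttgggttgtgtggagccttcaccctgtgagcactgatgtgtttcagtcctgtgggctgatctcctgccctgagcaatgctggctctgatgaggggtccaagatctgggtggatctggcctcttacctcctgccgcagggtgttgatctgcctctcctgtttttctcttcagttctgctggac
Btnl6, chr17:34517353-34517602, minus strand: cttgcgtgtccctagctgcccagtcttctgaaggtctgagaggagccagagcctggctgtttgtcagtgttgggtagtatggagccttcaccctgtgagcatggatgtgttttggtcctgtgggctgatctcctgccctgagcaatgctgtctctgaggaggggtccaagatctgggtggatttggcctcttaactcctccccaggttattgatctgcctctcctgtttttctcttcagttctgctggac

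The Btnl1 window held the 8 letters from 28 to 21 bases before the start site, and the Btnl2 window from 41 to 34 bases before it. Neither the Btnl4 nor the Btnl6 window held them. Of all 32851 windows of this length in the table, 393 (1.196%) held them on either strand. The table had 7 windows for 6 of the 9 genes, and 2 of the 7 held the letters. The Btnl4 and Btnl6 windows were identical at 228 of 248 aligned bases (91.9%), whereas the other pairs were identical at 68.3% to 73.7% of the 209 to 218 bases that could be aligned. The RefSeq start site of Btnl4 lies 1381 bases inside the GENCODE gene, and those of Btnl1, Btnl2 and Btnl6 coincide with the GENCODE ends. A match of letters is a description of these windows only.

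Btnl1, which the pairing with Btnl6 needs, was highest in enterocyte-like cells. There it stood at 172, 127, 161 and 154 CPM in libraries 1 to 4, against 23.7, 23.2, 20.6 and 23.0 CPM in cycling cells and 45.1, 26.2, 32.8 and 36.3 CPM in stem-like cells. Every enterocyte-like value lay above every crypt value. Btnl2 followed the same order, with 61.4, 43.1, 49.7 and 51.2 CPM in enterocyte-like cells and 6.83, 7.74, 6.09 and 5.42 CPM in cycling cells. Btnl6, the partner of Btnl1, had 15.7, 13.4, 14.7 and 13.2 CPM in enterocyte-like and 2.52, 3.02, 2.41 and 3.10 CPM in cycling cells. Btnl4 had 31.4, 25.4, 31.7 and 23.4 CPM in enterocyte-like and 10.4 to 12.003 CPM in cycling cells, the smallest of the 4 ratios. In all 4 genes the enterocyte-like and cycling values did not overlap, but the share of all genes without such overlap was not computed.

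Of the 7 genes that passed the filter, 6 were called lower in crypt cells (stem-like and cycling together) than in enterocyte-like cells, beside 11.6% of all genes tested. These were Btnl1 (median 6.20-fold lower), Btnl2 (6.98-fold), Btnl6 (3.88-fold), Btnl4 (2.23-fold), Il15 (3.89-fold) and Cxcl16 (4.52-fold). Btnl6 had 1.51 to 4.69 CPM in stem-like and 2.41 to 3.10 CPM in cycling cells. It lay below the 5 CPM of the filter there and passed only through its enterocyte-like arm. Cxcl16 was below 5 CPM in cycling cells of libraries 1, 2 and 4 (2.13 to 4.67 CPM) but not in stem-like cells. Both are part of the count. Ccl25 was 2.19-fold lower by the median but missed the limit in 1 library (log2 ratio -1.29 to -0.998). None was called higher, beside 28.5% of all genes. The median of all genes was 0.45 higher in crypt cells on the log2 scale, and 0.90 higher when UMIs per cell replaced CPM. On that second scale Btnl4 was no longer called (median log2 ratio -0.80), and the other 5 were.

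**Figure D1:**
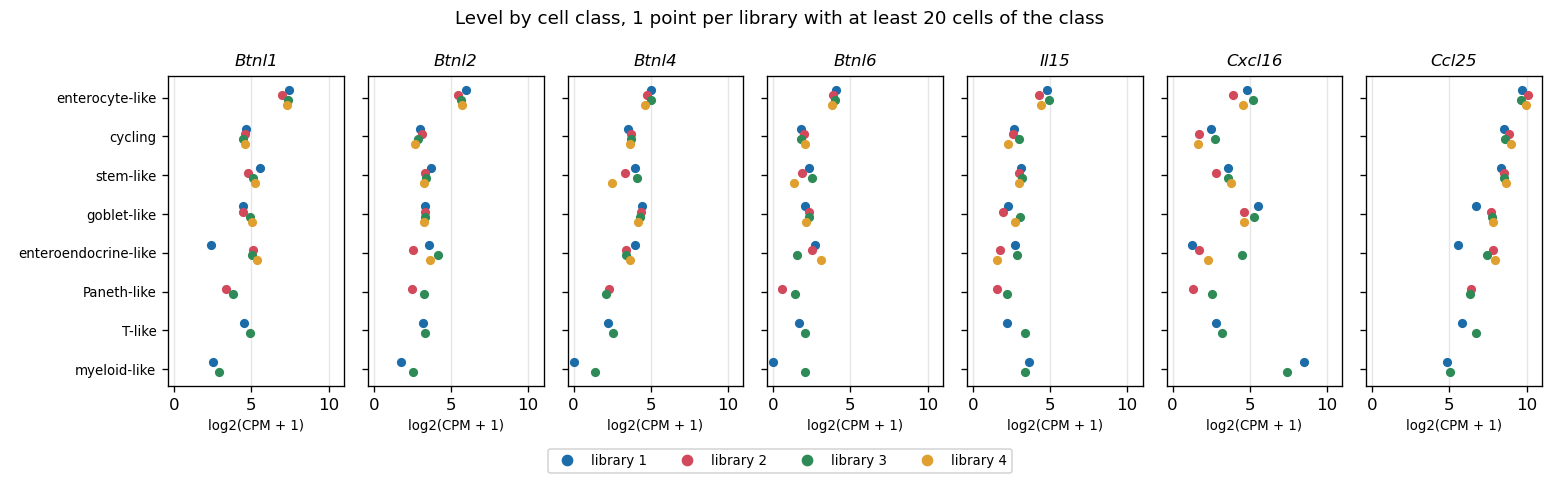
Levels of 7 genes as log2 of CPM plus 1 (horizontal axis) in 8 cell classes (vertical axis), 1 point for each library with at least 20 cells of the class. The 4 butyrophilin-like genes and Il15 are highest in enterocyte-like cells, Ccl25 is high in enterocyte-like and crypt cells, and Cxcl16 is highest in myeloid-like cells.

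Secretory cells carried less of most of these transcripts. In goblet-like cells 5 of the 7 genes were called lower and none higher (12.2% and 9.37% of all genes): Btnl1 at 20.6, 20.6, 29.1 and 32.5 CPM, Btnl2 at 8.35 to 8.93 CPM, Btnl6 at 3.06 to 4.06 CPM, Il15 at 2.88 to 7.34 CPM and Ccl25 at 105 to 225 CPM. Btnl6 lay below the 5 CPM of the filter in goblet-like cells and passed only through its enterocyte-like arm. Btnl4 and Cxcl16 were the exceptions to the lower calls. Btnl4 stood at 20.4, 19.3, 18.9 and 17.2 CPM in goblet-like cells, 1.43-fold below enterocyte-like cells by the median. Cxcl16 stood at 45.7, 24.05, 36.9 and 23.9 CPM, above the enterocyte-like value of the same library in all 4 (log2 ratio 0.04 to 0.74), which did not reach the limit, and on the scale of UMIs per cell 2 of the 4 libraries went the other way.

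In enteroendocrine-like cells (29 to 102 cells a library) Btnl1, Btnl2, Il15 and Ccl25 were called lower, beside 6.98% of all genes, and none higher, beside 25.6%. As UMIs per cell all 7 members that passed were called lower, with Btnl4 (median log2 ratio -1.93), Btnl6 (-2.002) and Cxcl16 (-2.86) added. On that scale the median of all genes was -0.25, and the share of all genes called was not computed. Enteroendocrine-like cells held a median of 11348 to 14517 UMIs a library, against 26175 to 30382 in enterocyte-like cells. The count per cell is therefore not read as a result about the members. In enteroendocrine-like cells Cxcl16 was at 1.36, 2.34, 22.0 and 3.79 CPM, so that library 3 stood apart from the others. Paneth-like cells reached 20 cells only in libraries 2 and 3, where all 7 genes that passed were lower. There 61.3% of all genes were called lower and 3.8% higher, so the members' count is not read as a result about them. Tuft-like cells reached 20 only in library 1, with 21 cells, and gave no comparison.

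T-like cells should lack the butyrophilin-like transcripts, and the level in them is given beside the others as a measure of free RNA and mixed droplets. They held 22.0 and 28.5 CPM of Btnl1 in libraries 1 and 3, from a median of 3656 and 3856.5 UMIs a cell. Thinned to 2000 UMIs a cell, 32.0% and 29.5% of enterocyte-like cells had a Btnl1 UMI (92.6% and 89.8% unthinned, median 28578 and 30382 UMIs), against 2.68% and 2.84% of T-like cells. Thinned goblet-like cells had it in 2.39% and 3.90%, with exact binomial 95% intervals of 0.781% to 5.49% and 1.80% to 7.27% that hold the T-like shares. Unthinned, the shares were 22.8% and 24.2% of goblet-like cells (median 28009 and 21651 UMIs) against 4.98% and 6.30% of T-like cells, and the level was 0.553 and 0.671 against 0.0935 and 0.127 UMIs per cell. Thinning removes more UMIs from the deeper goblet-like cells, and whether their Btnl1 UMIs are background was not tested. For Btnl4 the thinned share was 4.31% and 3.90% in goblet-like cells against 0.671% and 0.690% in T-like cells. The intervals were 1.99% to 8.02% and 1.80% to 7.27% in goblet-like cells. In T-like cells they were 0.0814% to 2.40% and 0.298% to 1.35%, so that the classes overlapped in library 1 and not in library 3. These intervals cover the sampling of cells within 1 library only. In the unthinned cells 8 of the 9 genes were found in a larger share of enterocyte-like than of T-like cells in both libraries, all except Il7. After thinning Tnfrsf14 was also no longer among them, at 0.213% and 0.267% of enterocyte-like against 0% and 0.776% of T-like cells (for the 0 of 298 cells the interval reaches 1.23%).

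Enterocytes move from the base of the villus to its tip as they age. Enterocyte-like cells were ordered by a score of tip genes minus ribosomal protein genes and cut into 5 bins of equal size over all libraries, bin 1 nearest the base and bin 5 nearest the tip. Of 10 check genes outside the score, 4 followed the order in every step in all 4 libraries (Alpi, Slc15a1 and Npc1l1 upward, Lypd8 downward): Lypd8, a base gene, was at 3455 to 5037 CPM in bin 1 and 86.9 to 394 CPM in bin 5, and Alpi, the brush-border phosphatase, at 292 to 427 and 1420 to 1820 CPM. The other 6 did not: the sugar transporter genes Slc5a1, Slc2a2 and Slc2a5 were highest in bin 4, Fabp1 in bin 2 or 3, Reg3b in bin 2 and Reg3g in bin 1 or 2. Bin 5 cells were shallow, with a median of 10206 UMIs and 15.1% mitochondrial UMIs against 31728 and 9.50% in bin 1. CPM and UMIs per cell therefore part at the tip, and both are given. The median of all genes was -0.20 on the log2 scale from base to tip as CPM and -1.66 as UMIs per cell.

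Cxcl16 and Ccl25, the 2 chemokines, had opposite courses on both scales. Cxcl16 rose from 5.54, 4.89, 8.48 and 5.89 CPM in bin 1 to 76.4, 72.1, 125 and 74.7 CPM in bin 5, a median log2 ratio of 3.60 (3.46 to 3.73), and was higher in each bin than in the one before in all 4 libraries. As UMIs per cell it rose from 0.210, 0.156, 0.329 and 0.182 to 0.926, 0.792, 1.59 and 1.01. Stem-like cells had 11.025, 6.07, 11.3 and 12.9 CPM of Cxcl16, above bin 1 in all 4 libraries. Per cell they had 0.328, 0.136, 0.369 and 0.347, below bin 1 only in library 2. Ada, at 3479 to 4086 CPM in bin 5, was at 151, 10.995, 117 and 161 CPM in stem-like cells. Its bin 1 values were 32.9, 7.10, 44.3 and 25.2 CPM. Apoa4, Alpi, Slc15a1 and Npc1l1, also highest in bin 5, were lower in stem-like cells than in bin 1. The part of tip RNA in the stem-like values was not tested. Ccl25 fell from 1254, 1296, 1168 and 1403 CPM to 201, 230, 181 and 228 CPM, a median log2 ratio of -2.63 (-2.68 to -2.49), and from 47.5, 41.3, 45.4 and 43.3 to 2.43, 2.52, 2.30 and 3.07 UMIs per cell. It was lower in each bin than in the one before in all 4 libraries. Ccl25 was nevertheless lower in stem-like cells (327 to 400 CPM) and cycling cells (363 to 504 CPM) than in bin 1, so that its peak lay at the villus base. Tip cells of libraries 1 and 3 had 2.43 and 2.30 UMIs of Ccl25 per cell, against 0.231 and 0.475 in T-like cells, which are shallower. As CPM the values were 201 and 181 against 54.3 and 107. B-like cells of these libraries had 22.6 and 223 CPM, from 2 and 108 UMIs, so that in library 3 they lay above the tip. The part of background in the tip values was not tested.

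Il15 rose toward the tip from 10.4, 9.97, 9.09 and 8.08 CPM to 52.8, 55.6, 72.1 and 47.1 CPM, a median log2 ratio of 2.39 (2.23 to 2.86). As UMIs per cell the values were 0.395, 0.317, 0.353 and 0.249 in bin 1 and 0.639, 0.610, 0.916 and 0.634 in bin 5, still higher in all 4 libraries but below the limit (median log2 ratio 1.08, lowest 0.66). Per cell Il15 was highest in bin 4, at 0.878, 0.682, 0.980 and 0.654. Il15ra, which presents Il15, was at 10.97 to 13.4 CPM in bin 1 and 5.78 to 11.7 CPM in bin 5 and was not called.

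The butyrophilin-like genes depended on the scale at the tip. As CPM, Btnl2 was called higher at the tip, with 35.2, 29.9, 24.2 and 27.5 CPM in bin 1 and 81.6, 61.6, 66.7 and 63.2 CPM in bin 5, but as UMIs per cell its median log2 ratio was -0.28. Btnl1 was 108, 94.5, 101 and 103 CPM in bin 1 and 244, 179, 199 and 185 CPM in bin 5, higher in every bin than in the one before in all 4 libraries, with a median log2 ratio of 0.95 that missed the limit, and of -0.54 per cell. Btnl6 had a median log2 ratio of 1.01 (0.69 to 1.37) as CPM and -0.42 per cell, and Btnl4 of 0.61 and -0.89. None of the 4 was called on the scale per cell.

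Per cell Btnl1, Btnl2 and Btnl6 were highest in bin 2 or 3 in every library, and Btnl4 in bin 1, 2 or 3. Btnl1 went from 4.11, 3.01, 3.91 and 3.19 UMIs per cell in bin 1 to 5.88, 3.84, 5.34 and 4.53 in bin 3 and 2.95, 1.96, 2.54 and 2.497 in bin 5. Btnl6 went from 0.418, 0.336, 0.312 and 0.307 to 0.481, 0.358, 0.454 and 0.376 and then 0.282, 0.244, 0.284 and 0.225. In every library bin 5 was the lowest of the 5 bins for Btnl1 and for Btnl6. Cycling cells had 0.982, 0.693, 0.840 and 0.763 UMIs of Btnl1 per cell, below every villus bin.

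**Figure D2:**
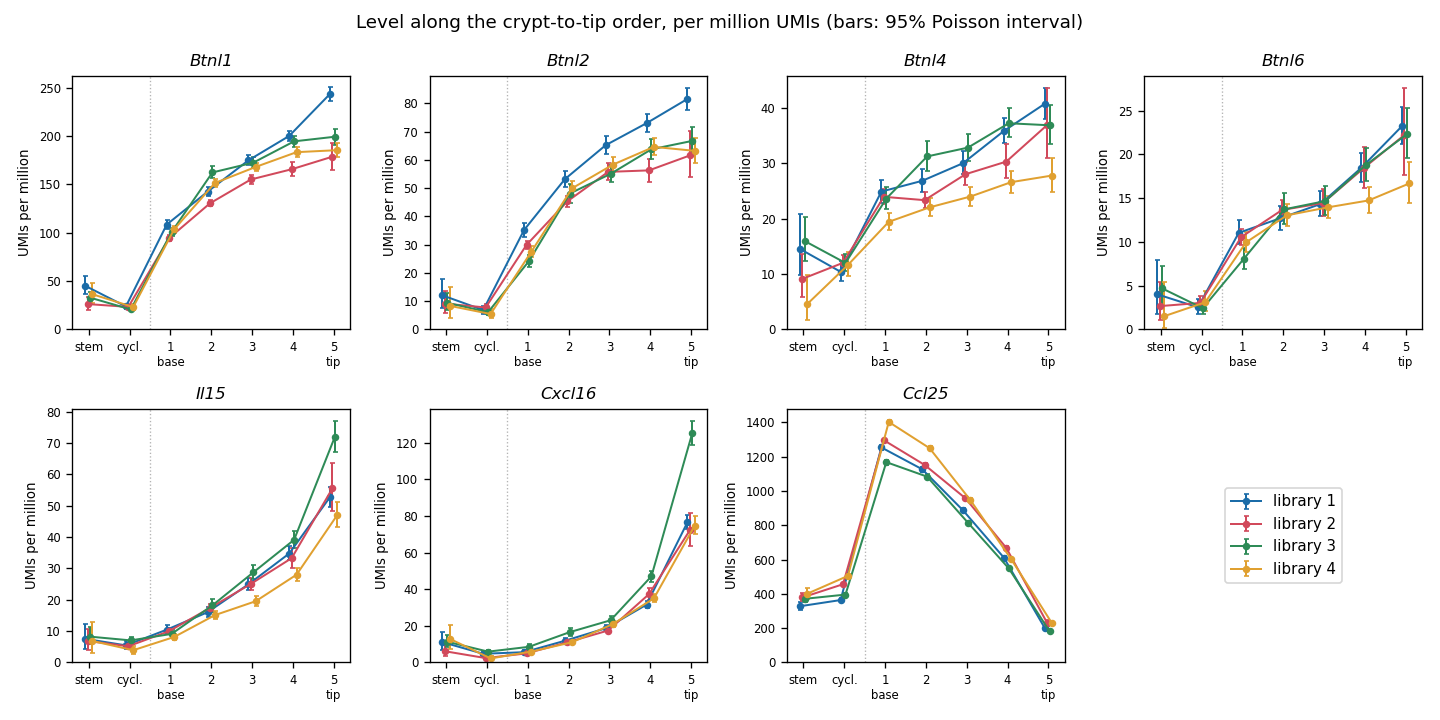
Levels in CPM (vertical axes, from 0) along the order stem-like, cycling, and enterocyte-like bins 1 (base) to 5 (tip), 1 line per library with 95% Poisson intervals. Cxcl16 and Il15 climb toward bin 5, Ccl25 peaks in bin 1 and declines, and the butyrophilin-like genes are higher in bin 5 than in bin 1 on this scale, though not as UMIs per cell (median log2 ratios -0.89 to -0.28).

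**Figure D3:**
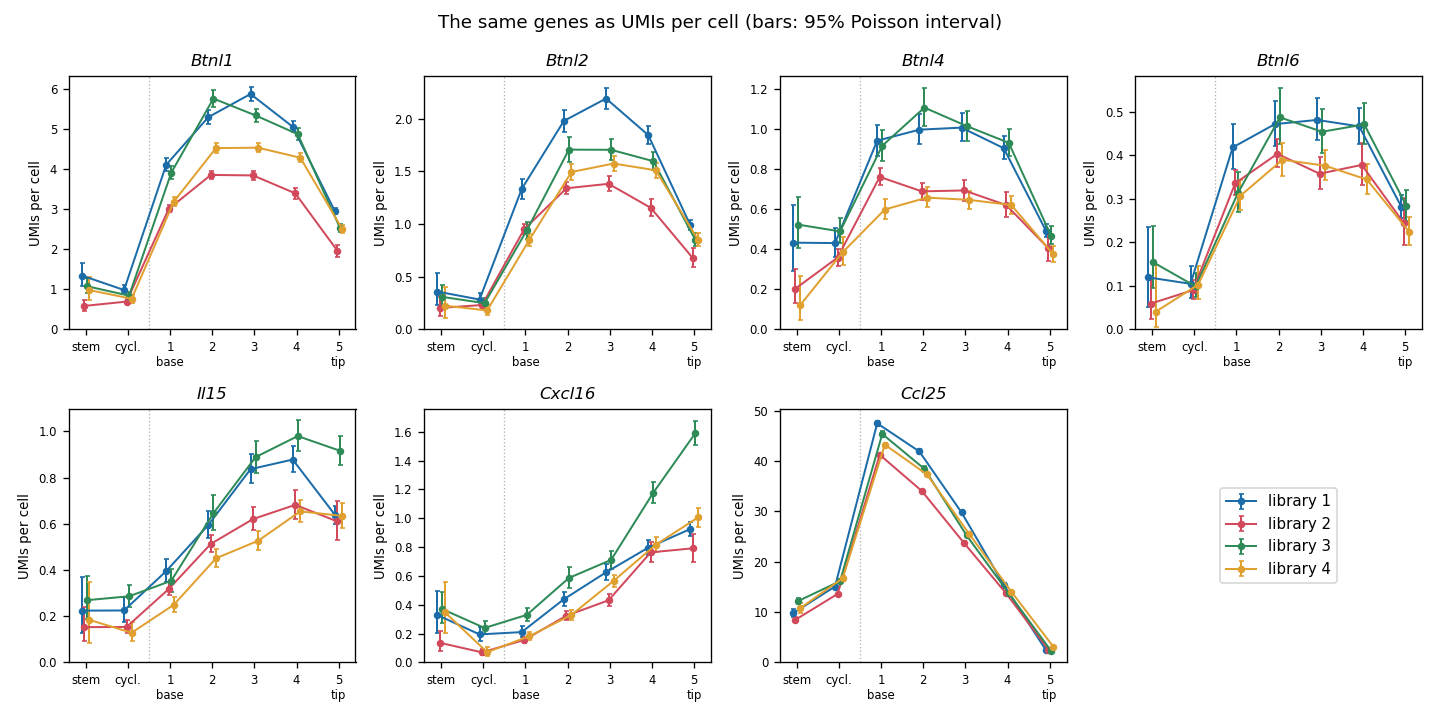
The same genes and order as UMIs per cell (vertical axes, from 0). The 4 butyrophilin-like genes come down in bin 5, in which cells held a median of 10206 UMIs, whereas Cxcl16 stays highest in bin 5.

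Of the 7 genes tested from base to tip, 3 were called higher as CPM (Btnl2, Il15, Cxcl16) beside 10.7% of all genes, and 1 lower (Ccl25) beside 20.9%. In UMIs per cell Cxcl16 and Ccl25 alone were called. The call of Btnl2 was also lost with at most 15% mitochondrial UMIs, with a prior of 5 CPM, with other base genes in the score and without Apoa4 in it. Without library 4, Btnl6 was called as well.

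Il7 and Tnfrsf14 were near the limit of detection in enterocyte-like cells and stayed below the filter. Il7 had 0.606, 0.668, 0.393 and 0.375 CPM in enterocyte-like cells, found in 1.502% and 1.03% of cells of libraries 1 and 3 (1.25% and 1.29% of T-like cells). It was higher in cells with few class markers, at 5.60, 2.09, 2.21 and 1.49 CPM, and among these it was 7.35 CPM (4.66 to 11.03), 3.00 (1.37 to 5.69), 4.80 (2.07 to 9.47) and 2.70 (0.327 to 9.76) in cells rich in Fabp6, the ileal bile acid binding protein. These values rest on 23, 9, 8 and 2 UMIs. Low-marker cells poor in Fabp6 had 3.47, 1.85, 1.06 and 1.22 CPM. Enterocyte-like cells rich in Fabp6 had 3.89 (1.87 to 7.16), 2.37 (1.30 to 3.98), 1.05 (0.286 to 2.68) and 0.777 (0.160 to 2.27) CPM, against 0.536, 0.592, 0.365 and 0.364 CPM in the others, with the same order in all 4 libraries and intervals that part only in libraries 1 and 2. These Il7 values by Fabp6 were not matched for villus position. T-like cells had 2.94 and 3.08 CPM of Il7 in libraries 1 and 3, from 4 and 17 UMIs, above enterocyte-like cells of the same libraries, and thinned to 2000 UMIs a cell 1.34% and 0.862% of them had an Il7 UMI against 0.149% and 0.0297% of enterocyte-like cells. Tnfrsf14 stood at 0.778, 0.741, 0.786 and 0.743 CPM in enterocyte-like cells and at 1.48, 1.95, 1.59 and 1.16 CPM in cycling cells, and T-like cells had 0 UMIs in library 1, with a 95% upper limit of 2.71 CPM (a floor of 3 counts is 2.20 CPM), and 2.17 CPM in library 3.

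Proximal and distal enterocytes were compared by a score of ileal minus jejunal landmark genes cut into 3 bins, within bins of villus position given equal weight. No member was called, beside 1.14% of genes called higher and 0.419% lower in the distal bin. As CPM, Cxcl16 had a median log2 ratio of distal to proximal of 0.56 (0.21 to 0.64) and Btnl6 of 0.32 (0.12 to 0.59), but per cell 2 of the 4 libraries were lower in the distal bin for each. Il15 had 0.26 as CPM and -0.22 per cell, where the median of all genes was -0.23. Btnl2 was lower in the distal bin in all 4 libraries on both scales (-0.18 as CPM, -0.59 per cell).

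A narrower ileal population, chosen after seeing the data, set Btnl6 apart. Enterocyte-like cells with at least 0.3% of their UMIs from Fabp6 numbered 100, 254, 153 and 156 and were compared with the other enterocyte-like cells of the same villus bins (bins 2 and 3 in library 1, bins 1 to 3 in the others). Btnl6 stood at 33.1, 26.0, 25.4 and 30.04 CPM in Fabp6-high cells against 12.8, 12.2, 11.3 and 11.6 CPM in the others, so that the ranges did not overlap. It was higher 2.30-fold by the median (log2 ratio 1.03 to 1.30) and was the 1 member of 7 called, beside 2.53% of genes called higher and 2.61% lower. As UMIs per cell the ratio was 1.92, 1.73, 1.68 and 2.17.

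Its paralogues did not follow to the same size. Btnl4, the neighbour with the most similar upstream sequence, stood at 39.97, 30.05, 36.0 and 29.2 CPM against 27.9, 24.8, 28.8 and 21.5 CPM (log2 ratio 0.26 to 0.51). Btnl1 had log2 ratios of 0.09 to 0.22 and Btnl2 of -0.22 to 0.28. As UMIs per cell, the ratio was 0.887 to 1.15 for Btnl4, 0.811 to 0.941 for Btnl1 and 0.637 to 0.876 for Btnl2. The difference between Btnl6 and the others was not tested. Low-marker cells, which took no part in that comparison, gave Btnl6 at 12.5, 19.0, 21.0 and 14.9 CPM where Fabp6 was high and at 1.93, 6.96, 5.03 and 7.62 CPM where it was low, and all 4 libraries had the same order. Btnl1 was higher in the Fabp6-high low-marker cells too, at 79.9, 82.2, 79.9 and 62.1 CPM against 39.0, 57.7, 38.9 and 50.6 CPM. These low-marker arms were not matched for villus position and differed in other genes. Reg3b stood at 67678, 63106, 19070 and 16769 CPM where Fabp6 was high and at 6415, 16295, 1798 and 2273 CPM where it was low. Ccl25 was also higher with Fabp6 in all 4 libraries. Whether the arms hold different kinds of cells was not tested.

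**Figure D4:**
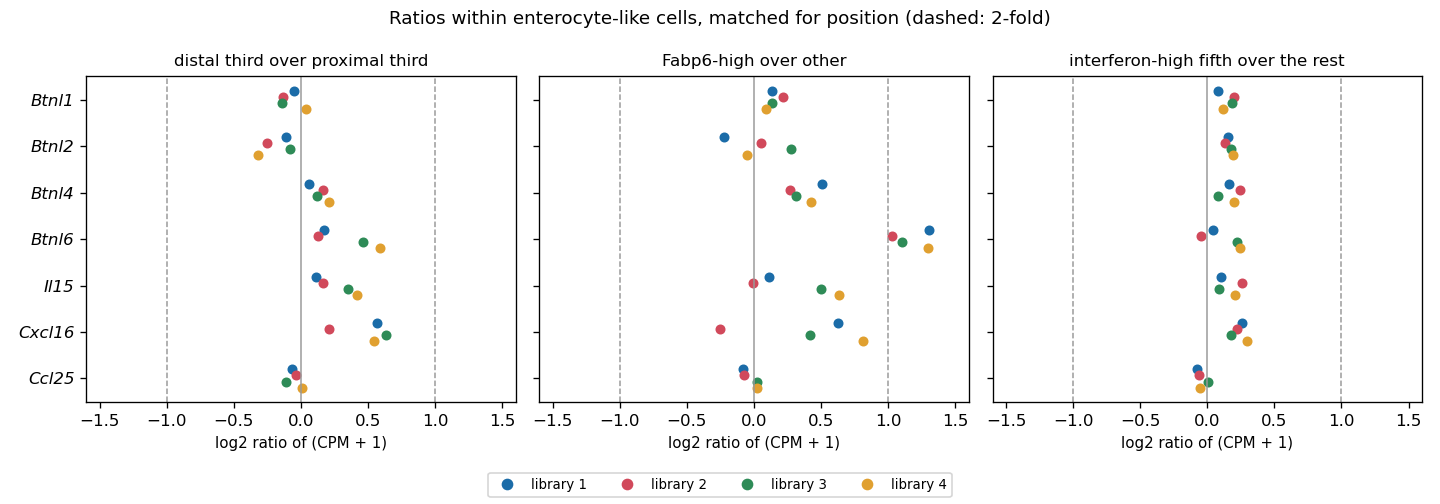
Log2 ratios of CPM plus 1 (horizontal axis) of 7 genes for 3 contrasts within enterocyte-like cells matched for villus position, 1 point per library, with dashed lines at 2-fold. Btnl6 in Fabp6-high cells is the 1 gene whose 4 points all lie past a dashed line, and in the interferon contrast all points lie between -0.08 and 0.30.

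Interferon genes differed between libraries, at a sum of 1018, 137, 214 and 136 CPM in enterocyte-like cells, so the cells with the highest sums were set against the rest within each library and villus bin. No member was called, beside 0.343% of genes called higher and 0% lower. Cxcl16 had a median log2 ratio of 0.24 (0.18 to 0.30), Btnl4 of 0.18, Btnl2 and Il15 of 0.16, Btnl1 of 0.15, Btnl6 of 0.13 and Ccl25 of -0.06. The median of all genes was -0.004 as CPM and -0.16 per cell. Per cell, the median ratios of the 4 butyrophilin-like genes and Il15 lay between -0.08 and -0.02, above that median. Cxcl16 was at 0.01 and Ccl25 at -0.16 per cell.

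Between libraries 6 of the 7 tested members differed by less than 2-fold, as did most genes, since 3.33% of all genes tested reached that limit. The count is therefore not read as a result about the members. T-like cells numbered 4 to 1238. The highest library exceeded the lowest 1.36-fold for Btnl1, 1.42-fold for Btnl2, 1.34-fold for Btnl4, 1.17-fold for Btnl6, 1.56-fold for Il15 and 1.35-fold for Ccl25 in enterocyte-like cells, with a median of 1.22-fold over all genes tested. In the same order, 22.7%, 17.3%, 24.8%, 64.4%, 9.83% and 23.9% of all genes tested had a larger ratio. Btnl1 stood at 172 and 161 CPM in libraries 1 and 3, with 321 and 1238 T-like cells, and at 127 and 154 CPM in libraries 2 and 4, with 4 and 5. Given equal weight over villus bins the values were 174, 145, 166 and 158 CPM, and Btnl6 was at 15.9, 15.9, 15.5 and 13.7 CPM. With 4 libraries of unknown diet, no relation with T cell number was computed.

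Cxcl16 was the 1 member past 2-fold between libraries, where 3.33% of genes were. It stood at 27.0, 14.1, 35.9 and 22.9 CPM, a ratio of 2.45. Library 2 had few tip cells: 6.57% of its enterocyte-like cells fell in bin 5, against 34.2%, 25.2% and 16.7% in libraries 1, 3 and 4. With equal weight over villus bins the values were 28.8, 28.5, 44.0 and 29.5 CPM, a ratio of 1.53 that was no longer past 2-fold (2.05% of genes were), and with equal weight over position and region the ratio was 1.62 (1.91% of genes were past 2-fold). Library 3 was the highest in each of the 5 bins, 1.30- to 1.73-fold above the lowest. The ratio also came under 2-fold without library 2 or without library 3. Library 3 enterocyte-like cells also held the most T-cell marker RNA, a sum over 14 markers of 29.4 CPM against 8.24, 0.799 and 1.56 CPM, and the part of T cell RNA in the Cxcl16 values was not tested. T-like cells themselves had 5.87 and 8.34 CPM of Cxcl16.

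Myeloid-like cells, found in number only in libraries 1 and 3 (45 and 49 cells), held more Cxcl16 than any other class, at 363 and 170 CPM. In enterocyte-like cells the sum over 12 myeloid markers was 208 to 247 CPM in bin 1 and 31.2 to 51.4 CPM in bin 5. Over all bins that sum was 109, 135, 132 and 124 CPM in libraries with 45, 1, 49 and 2 myeloid-like cells. Which cells this marker RNA came from was not tested, so the sum cannot be read as an amount of myeloid RNA. The part of myeloid RNA in the Cxcl16 values was not tested.

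The receptors for these signals were measured in T-like cells of libraries 1 and 3. Cd160, the ligand of Tnfrsf14 that marks intraepithelial lymphocytes, stood at 574 and 645 CPM, Itgae, the integrin that binds Cdh1 on epithelium, at 625 and 564 CPM, and Il2rb at 369 and 457 CPM. Il2rg was at 192 and 180 CPM, Ccr9 at 225 and 191 CPM and Cxcr6 at 186 and 245 CPM. Il7r was at 72.7 and 76.8 CPM, Tnfsf14 at 19.8 and 12.1 CPM, Il15ra at 13.2 and 15.8 CPM and Btla at 3.67 and 2.54 CPM. In enterocyte-like cells Il2rb was at 0.205 and 1.498 CPM and Ccr9 at 0.573 and 1.23 CPM, whereas Il15ra was at 11.9 and 8.61 CPM.

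Trdc, the gamma-delta receptor chain, was at 688 and 674 CPM and was found in 178 of 321 and 653 of 1238 T-like cells. The V-gamma-7 segment (Tcrg-V7) stood at 45.9 (31.8 to 64.1) and 37.8 (31.3 to 45.3) CPM in cells with Trdc and at 1.61 and 5.00 CPM in cells without. Il7r went the other way, with 41.8 and 44.6 CPM in cells with Trdc and 109 and 119 CPM without. Ccr9 was 212 and 194 CPM with Trdc and 241 and 188 CPM without, with intervals that overlap in both libraries.

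Btnl1 and Btnl6 act as a pair, and their presence in the same cell was counted in 15961 enterocyte-like cells thinned to 10000 UMIs, with 2838 shallower cells left out. In bin 3 of library 1, 84.9% of cells had a Btnl1 UMI, 13.3% had a Btnl6 UMI and 11.5% had both, where independent presence would give 11.3%. Over the 20 combinations of library and bin the share with both was 0.874 to 1.15 times the product of the single shares (median 1.02). The share with both was thus close to that product in most combinations. Single UMIs at this depth cannot show whether a cell without one lacks the transcript.

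Over 28 units (4 libraries by stem-like, cycling and the 5 bins), which share libraries, depth and the villus course, the butyrophilin-like genes resembled each other: r of log2(CPM + 1) was 0.99 for Btnl1 and Btnl2, 0.97 for Btnl1 and Btnl6, 0.96 for Btnl4 and Btnl6 and 0.89 for Btnl1 and Btnl4. Of 8799 genes, those most like Btnl1 were Ablim1, Spns2, Sec14l2, Btnl2 and Tcn2 (r 0.99). Heph, Btnl1, Slc35c2, Vil1 and Slc30a10 were most like Btnl2 (r 0.99). Btnl4 had Usp32, Btnl6, Mapkapk2, Eno1b and Gmppa (r 0.95 to 0.96), and Btnl6 had AU040320, Sec24d, Plekhg6, Kcnk5 and Pdzd3 (r 0.98).

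Il15 was most like Ccng2, Prkcd, H2-K1, Mxd1 and Uap1l1 (r 0.99), and Cxcl16 like Lamb3, Src, Nckap5, mt-Co1 and Furin (r 0.97 to 0.98). Il15 and Cxcl16 were at r 0.95 with each other. Ccl25 was most like Acot13, Bsg, Akr7a5, Gpr89 and Cyb5a (r 0.97 to 0.99), and its r with the other 6 members lay between -0.45 and 0.21.

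Other epithelial signals to lymphocytes, from a list of 28 genes found, gave 15 that passed the filter from base to tip, of which 3 were called higher and 2 lower (10.7% and 20.9% of all genes). Tnfsf13b (BAFF, a survival factor of B cells) rose from 1.95 to 3.10 CPM in bin 1 to 20.2 to 28.7 CPM in bin 5, and per cell it was still called (median log2 ratio 1.48). Il33, an alarmin, and Ceacam1, an adhesion receptor, were called higher as CPM (2.45-fold and 2.60-fold) but not as UMIs per cell, where their median log2 ratios were -0.13 and -0.03. Il18 fell from 199 to 398 CPM to 25.6 to 59.9 CPM, and Ccl28, a chemokine for IgA plasma cells, from 9.09 to 14.8 CPM to 0.826 to 1.36 CPM, both also called per cell. As CPM, Ceacam1 was also called higher in the distal bin (2.56-fold) and in Fabp6-high cells (4.59-fold). The median of the 15 was 0.38 on the log2 scale from base to tip, against -0.20 for all genes. Tnfsf13b in bin 1 and Ccl28 in bin 5 lay below 5 CPM, so each passed the filter only through its high arm. Both are part of these counts and of that median. None of the 5 other butyrophilin genes found (Btn1a1, Btn2a2, Btnl9, Btnl10, Skint1) passed the filter.

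Of 14 regulators of enterocytes outside the scores, 13 passed from base to tip. As CPM, Hnf4a (median log2 ratio 1.31) and Prdm1 (2.57) were called higher, but per cell Hnf4a was at -0.26 and Prdm1 at 1.28, neither called. Cdx1 (-1.32) and Klf5 (-1.71) were called lower on both scales. In Fabp6-high cells Maf was called higher (2.56-fold), and Hnf4a had a log2 ratio of 0.48 to 0.99.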

How the data were processed

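Transcripts of single cells from the small-intestinal epithelium were counted by droplet 3′ v2 chemistry with UMIs, per the labels' protocols. The authors deposited 1 matrix of raw UMI counts, with whole numbers for each gene in each barcode. Cell Ranger 6.1.1 and mm10 are named in the submitters' processing notes. The sources used here do not name the authors' barcode filter or annotation. The members and gene lists were chosen with earlier results of these data known. The filters on barcodes were a minimum of 500 UMIs and 250 genes and a maximum of 25% mitochondrial UMIs. Doublets stayed in: Scrublet (scanpy 1.11.5) marked 4, 1, 157 and 1 cells, so its automatic threshold had not worked in 3 of the 4 libraries, and removal of the highest 6% of scores was an alternative. Of 244 list and marker symbols, 237 were found. Counts were summed per library and class, divided by their total to give CPM, and compared within each library after adding 1 CPM, with the call rule given in the text. The rule was tested on simulated counts. Named genes were the 9 members, the 5 genes most like each by Pearson r, the listed genes called in position or region, at most 6 a list, and the receptors in T-like cells. The Fabp6 limit of 0.3%, a lower enterocyte limit of 0.5%, the scaling per cell and thinning to 10000 UMIs were chosen after seeing the data. Position and region scores are means of log counts per 10000. Alternatives were cell filters, doublets, prior, low filter, total without mitochondrial genes, other landmarks, weights and leaving out each library. The planned edgeR test of IPA against CON was not run, since no library could be tied to a sample.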

Additional observations from a re-analysis of the deposited data

How the results depend on the processing

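Of 102 counts of members called under an alternative, 95 stayed within 1.5 times the reported count and 7 did not. As UMIs per cell, 2 members in place of 4 were called from base to tip, Btnl2 changed sign there (-0.28 on the log2 scale), and 7 in place of 4 were called in enteroendocrine-like cells. The share of all genes called as UMIs per cell was not computed. With Fabp6-high cells in place of the region bins 1 member was called in place of 0. Between libraries 0 in place of 1 was called with equal weights over position bins, 0 with equal weights over position and region, and 0 to 1 when 1 library was left out (0 without library 2 and 0 without library 3). Leaving out 1 library elsewhere gave 4 to 5 from base to tip, 6 to 7 for crypt cells, 5 to 5 for goblet-like and 4 to 6 for enteroendocrine-like cells. Paneth-like cells could not be compared without library 2 or 3. Of 909 median ratios of single members, 782 moved by less than the SD over libraries, 126 by more and 1 reversed. For the ratios between libraries, which have no such SD, a fixed limit took its place. Whether the lower depth of tip cells has a part in these values was not tested. No paired analysis was possible because no library could be tied to a labelled sample or its replicate number, and the fit with a replicate block was not run. Depth limits Il7 and Tnfrsf14, below 1 CPM in enterocyte-like cells.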
